A study of Capra hircus with 72 samples.

Results

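The 10 genes described here encode proteins that neurons make in response to their own firing: the nuclear receptors NR4A1, NR4A2 and NR4A3, the zinc finger factors EGR1, EGR2, EGR3 and EGR4, the factor NPAS4, the synaptic protein ARC and the neurotrophin BDNF. They were chosen by symbol from the 21343 genes of the deposited table, and all 10 had a row. The choice was made with earlier results of the same libraries known, namely the lower levels of several immediate early genes in the medial prefrontal cortex (mPFC) of hypercapnic goats. For that reason the mPFC values under hypercapnia are given below as a description and are not used as a test. RNA was sequenced from female goats (Capra hircus) that had spent 14 days in 1 of 3 atmospheres. In the mild chronic hypercapnia (CH) group the air held 6% CO2 throughout, in the moderate group it held 6% for 7 days and 8% for the next 7 days, and the control group breathed room air. The regions were mPFC and 3 brainstem areas that take part in the control of breathing. NTS is the nucleus of the solitary tract, VRC the ventral respiratory column and RTN the retrotrapezoid nucleus. No genotype, other agent or age is given in the sources used here.

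Immediate early genes are transcribed within minutes of calcium entry or growth factor signalling, from transcription factors that are already present and need no new protein. The NR4A, EGR and NPAS4 proteins then act on the promoters and enhancers of later genes, among them BDNF, while ARC acts at the synapse itself, where it promotes the internalisation of AMPA-type glutamate receptors. In the cerebral cortex such transcripts are present at rest in active excitatory neurons, and they are widely used to mark neurons that have recently been active. In the deposited table NR4A1 is ENSCHIG00000009664 on chromosome 5, NR4A2 is ENSCHIG00000012843 on chromosome 2 and NR4A3 is ENSCHIG00000020292 on chromosome 8. EGR1 is ENSCHIG00000022705 on chromosome 7, EGR2 is ENSCHIG00000018766 on chromosome 28, EGR3 is ENSCHIG00000022674 on chromosome 8 and EGR4 is ENSCHIG00000013591 on chromosome 11. ARC is ENSCHIG00000007715 on chromosome 14, NPAS4 is ENSCHIG00000019911 on chromosome 29 and BDNF is ENSCHIG00000006804 on chromosome 15.

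Each of the 12 groups held 6 libraries, 72 in all, with 12.84 to 31.88 M counts per library (median 19.3 M). Levels are given as CPM, counts per 1 M, scaled by TMM factors, which allow for differences in library composition. The labels number the libraries 1 to 6 in every group and the design text gives 6 animals per condition, but no label ties a library number to an animal, so p-values measure the spread between these libraries. The room air libraries numbered 6 stood apart from the others in the brainstem. NR4A1 was at 28.3, 26.8 and 27.9 CPM in that library of NTS, VRC and RTN, while the next highest room air library was at 10.9, 11.2 and 14.8 CPM. In moderate NTS, replicate 3 was highest of its group for 6 of the 10 genes. Results that rest on these libraries are given with and without them. The cortical label was checked against 7 marker genes of excitatory cortical neurons, whose summed level in room air was 4007 to 5494 CPM in mPFC, against 113 to 239 CPM in NTS, 56.3 to 127 CPM in VRC and 21.3 to 46.2 CPM in RTN. Among them TBR1 and EMX1, which define cortex, averaged 92.9 ± 28.2 and 14.4 ± 2.67 CPM in mPFC (SD, n = 6) and were under 0.1 CPM on average in each brainstem region.

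Per length, ARC and EGR1 were the most abundant of the 10 genes in room air mPFC, at 98.5 ± 39.5 and 98.4 ± 26.7 RPKM (SD, n = 6). RPKM is the authors' read count scaled to the length of the gene model and the size of the library. EGR4 followed at 70.9 ± 21.2 RPKM and NR4A1 at 40.7 ± 12.5 RPKM, then EGR3 at 21.2 ± 4.95 and EGR2 at 10.3 ± 4.26 RPKM. NR4A2 was at 7.04 ± 2.44, BDNF at 4.88 ± 0.939, NPAS4 at 4.75 ± 2.00 and NR4A3 at 1.19 ± 0.457 RPKM. The ranges of neighbours in this order overlapped, except that NR4A3 lay below NPAS4 in every library. The gene models of EGR1, EGR2, EGR4 and ARC have lengths that are multiples of 3, as a coding sequence without untranslated regions would, so the order between these 4 and the other genes depends on how the models were drawn. In the brainstem the order was different: EGR1 led in NTS at 10.7 ± 6.50 RPKM and in VRC at 5.95 ± 3.38 RPKM, whereas in RTN NR4A1 stood at 4.43 ± 2.13 RPKM and EGR1 at 4.20 ± 1.75 RPKM.

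Of the 10 genes, 9 could be tested between mPFC and the brainstem in room air, and all 9 were called higher in mPFC. EGR3, the other gene, passed the filter on low counts through its mPFC level alone, which fixes the outcome of a test, so its values are given with no test. The comparison set mPFC against the mean of NTS, VRC and RTN with edgeR's quasi-likelihood test, and a gene was called at a Benjamini-Hochberg adjusted p under 0.05 over all genes tested. Of 15700 genes tested, 30.9% were called higher in mPFC by the same rule. Of those 9 genes, 8 had an mPFC range wholly above the brainstem range, BDNF being the exception, against 10.5% of all genes tested. In the mild CH libraries alone 8 of the 8 genes that passed the filter on brainstem libraries were called higher in mPFC (30.3% of all genes), NPAS4 then joining EGR3 among those that did not. In the moderate CH libraries alone 9 of 9 were (26.3% of all genes). The mPFC libraries of all 3 conditions also entered the contrasts that led to the choice of these genes.

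**Figure D1:**
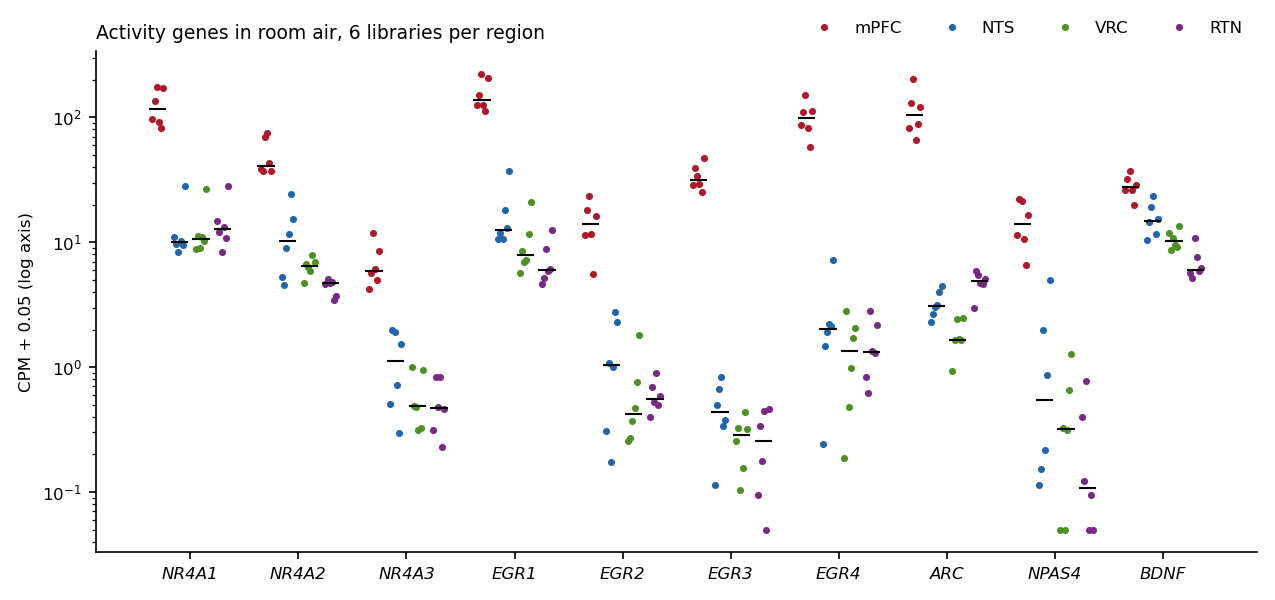
Level of each activity gene in room air, as CPM plus an offset of 0.05 on a log axis, with a point for each of 6 libraries per region and a bar at the median. The mPFC points lie above all brainstem points for every gene but BDNF, and EGR3 and NPAS4 come close to the offset, or reach it, in brainstem libraries.

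Among the nuclear receptors, NR4A1, an orphan receptor that also restrains inflammatory genes in macrophages, ranged from 82.7 to 176 CPM in mPFC (median 116). In the brainstem it ran from 8.33 to 28.3 CPM, and its medians of 9.94 CPM in NTS, 10.6 in VRC and 12.6 in RTN lay close together. The difference between mPFC and brainstem was 3.22 ± 0.24 on the log2 scale (SE; adjusted p = 2.62e-11, edgeR), a 9.32-fold higher level. NR4A2, which in mice is required for midbrain dopamine neurons, ranged from 37.4 to 75.3 CPM in mPFC with a median of 40.8. In NTS it spread from 4.49 to 24.5 CPM, in VRC from 4.71 to 7.87 and in RTN from 3.42 to 5.00. The mPFC level was 7.23-fold higher (log2 difference 2.85 ± 0.21, adjusted p = 3.01e-11, edgeR). NR4A3, the least abundant of the family, ranged from 4.15 to 11.8 CPM in mPFC and stayed at or below 1.92 CPM in every brainstem library, a 10.3-fold difference (log2 3.37 ± 0.31, adjusted p = 1.55e-09, edgeR).

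EGR3 and EGR4 had the largest fitted differences of the 10 genes. EGR3, a factor that in mice is also needed for muscle spindles, ranged from 25.3 to 46.9 CPM in mPFC and from 0 to 0.789 CPM in the brainstem. Its count was 3 or fewer, the floor used here for detection (0.0941 to 0.234 CPM, depending on the library), in 4 of 18 NTS, 12 of 18 VRC and 11 of 18 RTN libraries of all conditions. The fitted log2 difference was 6.97 ± 0.26 (SE). EGR4, the family member described least, was 57.95-fold higher in mPFC (58.2 to 152 CPM) than in the brainstem (0.137 to 7.14 CPM), a log2 difference of 5.86 ± 0.34 (adjusted p = 2.75e-13, edgeR). EGR2, known in mice for hindbrain segmentation and for myelination by Schwann cells, was 18.8-fold higher in mPFC (log2 4.23 ± 0.36, adjusted p = 3.17e-10). EGR1, the family member most used as an activity marker, ranged from 112 to 222 CPM in mPFC with a median of 138. Its brainstem range was 4.62 to 36.8 CPM, and the log2 difference was 3.87 ± 0.24 (adjusted p = 7.09e-13, edgeR), or 14.6-fold.

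ARC was 37.9-fold higher in mPFC, at 66.0 to 203 CPM, than in the brainstem, at 0.887 to 5.79 CPM (log2 5.24 ± 0.18, adjusted p = 4.80e-18, edgeR). NPAS4, a factor induced by calcium entry and restricted to neurons, ranged from 6.55 to 22.2 CPM in mPFC. It reached 4.94 CPM in a single NTS library, replicate 6, and was at 0 counts in 6 of 18 RTN libraries and 4 of 18 VRC libraries of all conditions. Its log2 difference was 4.87 ± 0.56 (adjusted p = 6.02e-08, edgeR). BDNF, the secreted ligand of the receptor NTRK2, had the smallest gradient, with 19.9 to 37.2 CPM in mPFC and 5.15 to 23.5 CPM in the brainstem (log2 1.44 ± 0.15, adjusted p = 1.02e-08, edgeR). Its highest NTS library lay within the mPFC range. In bulk tissue a smaller number of expressing cells and less RNA per cell cannot be told apart. The excitatory neuron markers given above were also higher in mPFC, and their part in these differences was not tested.

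Within the brainstem, the genes differed less, and most had their highest fitted level in NTS in room air. Over the 10, EGR3 included, the median log2 difference was 0.87 for NTS against VRC and -1.16 for RTN against NTS. EGR3 entered this fit through its mPFC level alone, at 0 to 0.789 CPM in the brainstem. It is therefore left out of the counts of calls below, which are over the other 9 genes. ARC (0.58) and NR4A1 (0.21) had higher fitted levels in RTN than in NTS, and neither was called in this fit. Between NTS and VRC 3 of the 9 were called, against 33% of all genes, and all 3 were higher in NTS. They were NR4A2 (log2 0.85 ± 0.30, adjusted p = 0.0295), ARC (0.85 ± 0.27, adjusted p = 0.0174) and BDNF (0.56 ± 0.20, adjusted p = 0.0316, all edgeR). Their ranges overlapped between these regions. The NR4A2 call was lost without NTS replicate 5, where the log2 difference was 0.49 and the adjusted p 0.155 (2.08e-05 to 0.155 over all alternatives), and also without NTS replicate 6 or VRC replicate 1 or 4. The BDNF call was lost without NTS replicate 3 or 4 or VRC replicate 2, 4 or 5, with adjusted p-values up to 0.115 (0.000867 to 0.115 over all alternatives). ARC was not called in the mild or the moderate CH libraries (adjusted p = 0.0507 and 0.131, edgeR; 0.00201 to 0.131 over all alternatives). The 6 markers listed for dopamine neurons, cells for which NR4A2 is best known, were summed in room air. The sums were 195 to 431 CPM in NTS, 59.3 to 101 CPM in VRC and 171 to 269 CPM in RTN. NR4A2 itself was at 3.42 to 5.00 CPM in RTN, beside 4.71 to 7.87 CPM in VRC. In NTS DDC averaged 126 CPM, ALDH1A1 106 CPM and TH 80.3 CPM. SLC6A3, the transporter that defines these neurons, averaged 1.73 ± 0.929 CPM in NTS (SD, n = 6). It averaged 0.502 ± 0.351 CPM in VRC and 0.928 ± 0.376 CPM in RTN. The part of these cells in the NR4A2 difference was not tested.

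RTN differed from VRC in 2 of the 9 genes other than EGR3, against 14.7% of all genes. ARC was higher in RTN, with 2.95 to 5.79 CPM there and 0.887 to 2.44 CPM in VRC, so that the ranges did not overlap, as for 9.22% of all genes (log2 1.43 ± 0.27, adjusted p = 0.000693, edgeR). BDNF was lower in RTN, with 5.15 to 10.8 CPM there and 8.69 to 13.3 CPM in VRC (log2 -0.60 ± 0.20, adjusted p = 0.0451). This BDNF call was lost in 14 of the 24 fits that left out a single library: RTN replicate 1, 2, 4, 5 or 6, VRC replicate 1, 3, 4, 5 or 6, mPFC replicate 4 or 6, or NTS replicate 2 or 6. Without the room air libraries numbered 6 its adjusted p was 0.201 (0.00443 to 0.201 over all alternatives). RTN was lower than NTS in 3 of the 9 genes, against 21.6% of all genes called in either direction. They were BDNF (log2 -1.16 ± 0.20, adjusted p = 0.000184), NR4A2 (-1.38 ± 0.30, adjusted p = 0.00179) and EGR1 (-1.20 ± 0.34, adjusted p = 0.0119, all edgeR). EGR1 was at 4.62 to 12.5 CPM in RTN and 10.5 to 36.8 CPM in NTS, and without NTS replicate 6 the difference was -0.81 with an adjusted p of 0.0606 (0.000104 to 0.0606 over all alternatives).

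In mPFC the log2 fold changes of the 10 genes against room air ran from -1.16 to 0.07 in mild CH. In moderate CH they ran from -1.01 to 0.20, and differences between the genes were not tested. The values of this paragraph and the next 3 are those that chose the genes and are a description. In mild CH 9 of the 10 had a negative log2 fold change against room air, with a median of -0.50 over the 10 and -0.01 over all 15403 genes tested. In moderate CH 8 of the 10 were negative, with a median of -0.25, beside 0.01 over all genes. edgeR called 0 of the 10 and 0% of all genes in mild CH, and likewise 0 of the 10 and 0% of all genes in moderate CH. DESeq2 called 0 of the 10 in both. At an unadjusted p under 0.05 in edgeR, 4 of the 10 passed in mild CH, beside 3.45% of all genes, and 3 in moderate CH, beside 2.10%. Nothing is read from these counts, since the same contrasts chose the genes.

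**Figure D2:**
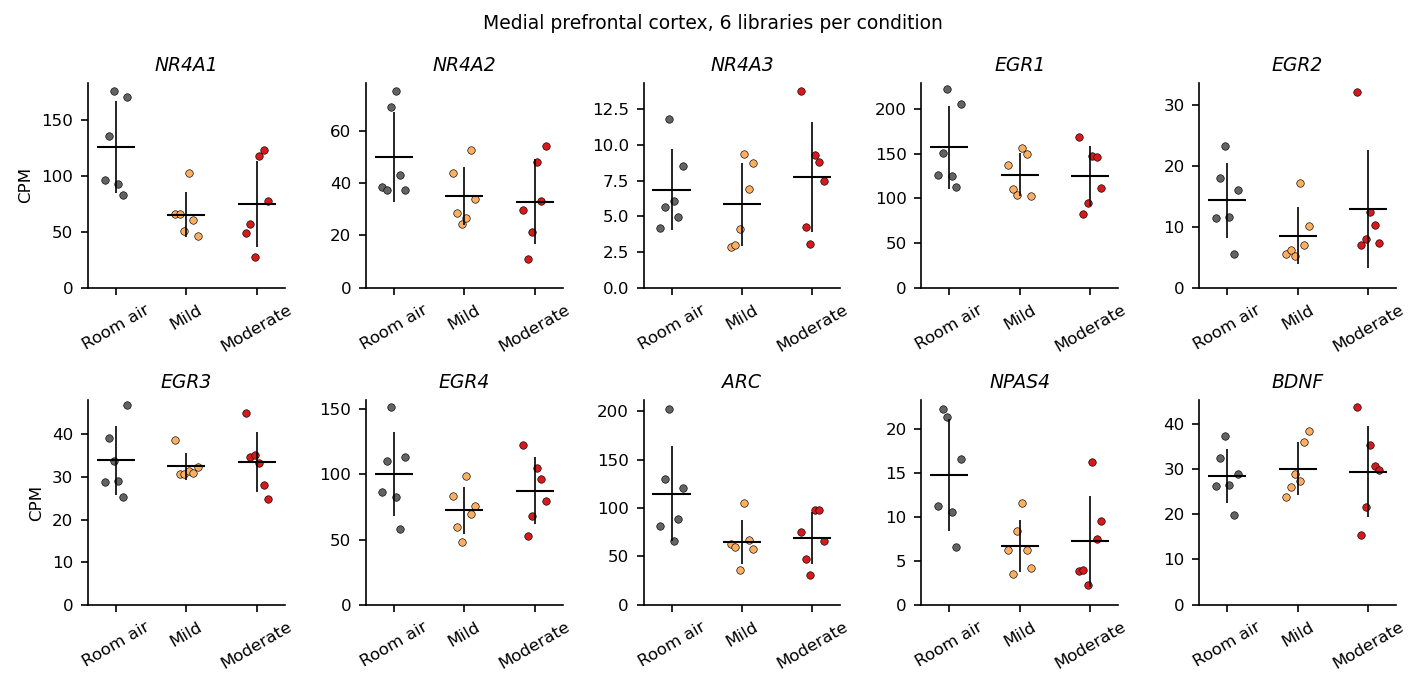
CPM of the 10 genes in mPFC for room air, mild CH and moderate CH, with a point for each of 6 libraries, a bar at the mean and a line of 1 SD on either side. NR4A1, ARC and NPAS4 have lower means in both CH groups than in room air, EGR3 and BDNF sit at like levels in the 3 conditions, and the groups overlap for all 10 genes.

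NR4A1 was at 45.8, 63.2 and 103 CPM (lowest, median and highest) in mild CH, at 27.3, 67.2 and 123 CPM in moderate CH, and at 82.7, 116 and 176 CPM in room air. All 6 mild libraries lay below the room air median, as did 4 of 6 moderate libraries, and the ranges overlapped. The log2 fold change was -0.95 ± 0.30 in mild CH and -0.73 ± 0.30 in moderate CH (SE). NR4A2 averaged 35.0 ± 11.2 CPM in mild CH, 32.9 ± 16.3 in moderate CH and 50.2 ± 17.4 in room air (SD, n = 6). Its log2 fold changes were -0.52 ± 0.31 in mild and -0.59 ± 0.31 in moderate CH, with 4 of 6 libraries below the room air median in each. NR4A3 was at -0.24 ± 0.37 in mild and 0.20 ± 0.37 in moderate CH, and its sign in moderate CH turned without moderate replicate 1 (-0.05).

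ARC was at 35.9, 61.0 and 105 CPM in mild CH, at 30.8, 70.4 and 98.3 CPM in moderate CH, and at 66.0, 105 and 203 CPM in room air. All 6 moderate libraries and 5 of 6 mild libraries lay below the room air median, with overlapping ranges. The log2 fold changes were -0.84 ± 0.30 in mild and -0.72 ± 0.30 in moderate CH. Room air replicate 3, with 203 CPM, was the highest of its group for 7 of the 10 genes. Without it ARC stood at -0.59 in mild and -0.48 in moderate CH. NPAS4 was at 3.44, 6.17 and 11.6 CPM in mild CH, at 2.26, 5.71 and 16.3 CPM in moderate CH, and at 6.55, 13.9 and 22.2 CPM in room air. It had the most negative fold changes of the 10 genes, -1.16 ± 0.42 in mild CH (6 of 6 libraries below the room air median) and -1.01 ± 0.41 in moderate CH (5 of 6). BDNF, which NPAS4 activates in cultured rodent neurons, stood at 0.07 ± 0.20 in mild and 0.06 ± 0.20 in moderate CH.

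The EGR genes had the following values in mPFC. EGR2 averaged 8.51 ± 4.63 CPM in mild CH, 12.8 ± 9.67 in moderate CH and 14.3 ± 6.16 in room air (SD, n = 6), with log2 fold changes of -0.76 ± 0.40 and -0.15 ± 0.40. A single library, moderate replicate 1 at 32.1 CPM, held the moderate mean up, and without it the moderate value was -0.66. Without room air replicate 3 it was 0.04. EGR4 stood at -0.48 ± 0.22 in mild and -0.19 ± 0.22 in moderate CH. EGR1 stood at -0.31 ± 0.19 in both. EGR3 was at -0.07 ± 0.15 in mild and -0.01 ± 0.15 in moderate CH, and all its mild libraries lay between 30.6 and 38.8 CPM. Between moderate and mild CH edgeR and DESeq2 each called 0 of the 10 genes and edgeR called 0% of all genes, and 0 of the 10 passed an unadjusted p of 0.05, beside 4.71% of all genes. EGR2 was above the mild median in 6 of 6 moderate libraries (log2 0.61 ± 0.40), with overlapping ranges.

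Markers of cell types gave the following values beside these. The excitatory neuron markers summed to 3972 to 4829 CPM in mild CH, 3626 to 5580 CPM in moderate CH and 4007 to 5494 CPM in room air. CAMK2A alone averaged 3598 CPM in room air. Of these 7 markers, 4 were negative in mild CH and 5 in moderate CH (median log2 -0.04 and -0.17). All 7 astrocyte markers were negative in mild CH and 1 of 7 in moderate CH (median log2 -0.09 and 0.04). Of 7 general neuronal markers, 0 were negative in mild CH and 5 in moderate CH. All 7 pericyte and smooth muscle markers were negative in mild CH (summed level 159 to 410 CPM, against 208 to 1104 CPM in room air), and 4 of 7 in moderate CH (288 to 640 CPM). The 6 microglia markers with a row summed to 228 to 499 CPM in mild CH, 269 to 559 CPM in moderate CH and 219 to 445 CPM in room air, and 0 of 6 were negative in moderate CH. The part of these shifts in the activity genes was not tested.

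**Figure D3:**
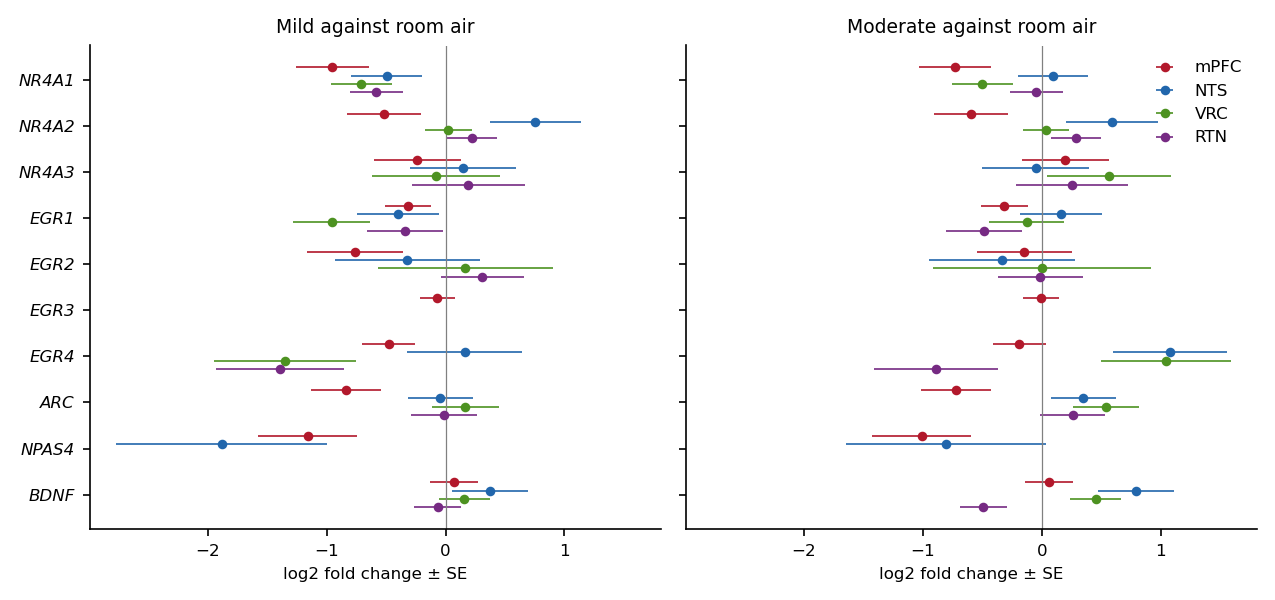
log2 fold change of each gene with its SE (horizontal line), mild against room air on the left and moderate against room air on the right, coloured by region. EGR3 outside mPFC, and NPAS4 in VRC and RTN, are missing because they did not pass the filter on low counts. NR4A1 and EGR1 are negative in all 4 regions in mild CH, but in NTS they stand at -0.10 and -0.0079 without room air replicate 6, and EGR4 in moderate CH is positive in NTS and VRC and negative in mPFC and RTN. For EGR1 in RTN (-0.34 ± 0.32 in mild CH), room air replicate 6 was also the highest room air library, at 12.5 CPM beside a median of 5.94 CPM.

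In the brainstem the hypercapnia contrasts had no part in the choice of the genes. Of the 10 genes 9 passed the filter on low counts in NTS, and 8 in VRC and in RTN. With edgeR 0 of them were called in any brainstem contrast with room air, and DESeq2 likewise called 0. The share of all genes called was 0% in mild NTS, 0.00649% in moderate NTS (a single gene, not among the 10), 0% in mild VRC, 0% in moderate VRC, 0% in mild RTN and 0% in moderate RTN. The genes named in the next 4 paragraphs are those with an unadjusted p under 0.05, chosen after their values were seen, and none passed the adjustment unless stated.

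In NTS 1 of 9 genes in mild CH and 2 of 9 in moderate CH had an unadjusted p under 0.05, beside 4.66% and 13.4% of all genes. NPAS4 was at 0, 0.173 and 0.889 CPM (lowest, median and highest) in mild CH and at 0.0648, 0.493 and 4.94 CPM in room air. The log2 fold change of -1.88 ± 0.89 (adjusted p = 0.848, edgeR) became -0.73 without room air replicate 6, the library at 4.94 CPM. EGR4 was at 2.73, 4.69 and 10.7 CPM in moderate CH and at 0.194, 1.98 and 7.14 CPM in room air. All 6 moderate libraries lay above the room air median, with overlapping ranges (log2 1.08 ± 0.48, adjusted p = 0.355, edgeR). The value was 1.75 ± 0.42 without room air replicate 6, with an adjusted p of 0.313, and 0.75 without moderate replicate 3 (adjusted p 0.188 to 0.681 over all alternatives). BDNF was at 15.2, 19.6 and 67.3 CPM in moderate CH and at 10.4, 14.9 and 23.5 CPM in room air. The 67.3 CPM belonged to moderate replicate 3, and the fold change of 0.79 ± 0.32 (adjusted p = 0.337, edgeR) was 0.29 without that library. Neuronal and glial markers differed beside these values: 6 oligodendrocyte markers summed to 3853 to 14530 CPM in moderate NTS and 7576 to 34010 CPM in room air, and 7 neuronal markers to 6735 to 16770 CPM in moderate NTS and 4938 to 16030 CPM in room air. Their part was not tested.

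In VRC 3 of 8 genes in mild CH and 1 of 8 in moderate CH had an unadjusted p under 0.05, beside 6.23% and 5.67% of all genes. EGR4 was at 0.132, 0.319 and 1.35 CPM in mild CH, at 1.57, 2.59 and 4.49 CPM in moderate CH, and at 0.137, 1.30 and 2.75 CPM in room air. The moderate and mild ranges did not overlap, as for 0.627% of all genes, while both overlapped room air. Against room air the log2 fold change was -1.35 ± 0.60 in mild CH (adjusted p = 0.778) and 1.04 ± 0.55 in moderate CH (adjusted p = 0.872, both edgeR). Moderate against mild it was 2.40 ± 0.59 with an adjusted p of 0.115 in edgeR, where 0 of the 8 genes tested and 0% of all genes were called and 2, EGR1 and EGR4, had an unadjusted p under 0.05, beside 15.5% of all genes. DESeq2 called this difference, with an adjusted p of 0.00896, as did edgeR without moderate replicate 6, with 0.0475 (0.00896 to 0.254 over all alternatives). The share of all genes that DESeq2 called in this contrast is not given, so its call is not read as particular to EGR4. DESeq2 also called 4 genes of the lists described below in this contrast, where edgeR called 0. These levels rest on few reads, since EGR4 had 2 to 91 counts in VRC libraries and 3 or fewer in 4 of 18. EGR1 likewise had its lowest median in mild CH, with 3.57, 5.08 and 7.09 CPM (lowest, median and highest). It was at 4.04, 8.44 and 15.6 CPM in moderate CH and at 5.60, 7.85 and 20.8 CPM in room air. For moderate CH against room air, where EGR4 was positive, EGR1 stood at -0.13 ± 0.31 (adjusted p = 0.980, edgeR). It was -0.96 ± 0.32 in mild CH against room air (adjusted p = 0.735, 6 of 6 libraries below the room air median) and 0.83 ± 0.32 in moderate against mild CH (adjusted p = 0.232, both edgeR). The first of these became -0.61 without room air replicate 6.

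NR4A1 in VRC was at 5.11, 7.38 and 11.0 CPM in mild CH and at 8.81, 10.6 and 26.8 CPM in room air. Its fold change of -0.71 ± 0.26 (adjusted p = 0.759, edgeR) was -0.35 without room air replicate 6. BDNF in moderate VRC was at 7.15 to 22.4 CPM, against 8.69 to 13.3 CPM in room air, with 5 of 6 libraries above the room air median (log2 0.45 ± 0.21, adjusted p = 0.864, edgeR). All 7 neuronal markers were also positive in moderate VRC, with a median of 0.35 on the log2 scale and summed levels of 5763 to 15420 CPM, against 7295 to 11240 CPM in room air. In mild VRC all 6 microglia markers were positive, with a median of 0.43 and summed levels of 257 to 469 CPM, against 173 to 346 CPM in room air. The 6 leukocyte markers tested were positive as well (median 1.55). All 7 leukocyte markers summed to 14.2 to 109.9 CPM (median 23.9), against 11.4 to 20.6 CPM (median 17.8) in room air. The 109.9 CPM belonged to mild replicate 3. The part of these markers was not tested.

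In RTN 2 of 8 genes in mild CH and 1 of 8 in moderate CH had an unadjusted p under 0.05, beside 6.59% and 7.38% of all genes. NR4A1 was at 7.32, 9.78 and 11.5 CPM in mild CH, at 12.2, 13.1 and 17.7 CPM in moderate CH and at 8.36, 12.6 and 27.9 CPM in room air. All 6 mild libraries lay below the room air median (log2 -0.58 ± 0.22, adjusted p = 0.751, edgeR), and the value was -0.29 without room air replicate 6. The moderate and mild ranges did not overlap, as for 0.834% of all genes (log2 0.54 ± 0.22, adjusted p = 0.397, edgeR). EGR4 was at 0.0607, 0.511 and 1.07 CPM in mild CH and at 0.572, 1.28 and 2.79 CPM in room air, with all 6 mild libraries below the room air median (log2 -1.39 ± 0.54, adjusted p = 0.751, edgeR). BDNF was at 3.35, 4.95 and 6.61 CPM in moderate CH and at 5.15, 5.96 and 10.8 CPM in room air (log2 -0.49 ± 0.20, adjusted p = 0.635, edgeR), and the value was -0.31 without room air replicate 3. Between moderate and mild CH 0 of the genes were called in NTS, against 0% of all genes, and 0 in RTN, against 0% of all genes. DESeq2 called 0 in both. At an unadjusted p under 0.05, 0 of 9 genes passed in NTS, beside 4.02% of all genes, and 2 of 8 in RTN, NR4A1 and BDNF, beside 10.6%. Cell type markers differed in RTN too. In mild CH all 6 microglia markers (median 0.43; 298.5 to 410 CPM summed, against 186 to 376 CPM in room air) and all 7 leukocyte markers (median 0.58; 18.6 to 34.7 CPM, against 11.7 to 25.6 CPM) were positive. In moderate CH all 7 endothelium markers were (median 0.43; 341 to 820.5 CPM, against 302 to 483 CPM). Their part was not tested.

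**Figure D4:**
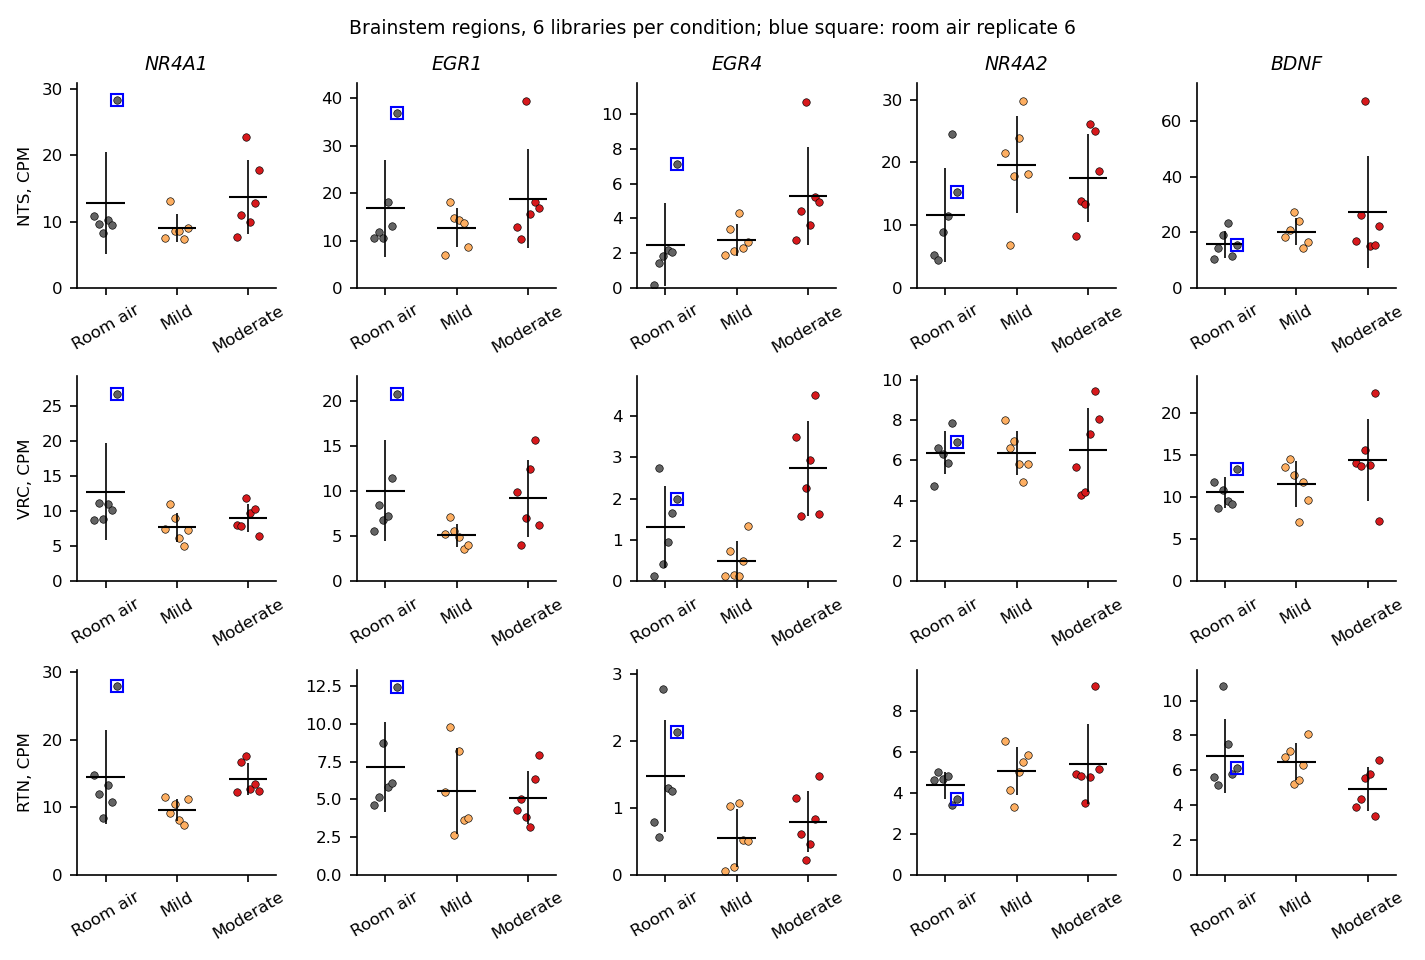
CPM of 5 of the genes in NTS, VRC and RTN (rows) for room air, mild CH and moderate CH, with a point for each of 6 libraries, a bar at the mean and a line of 1 SD on either side. The blue square marks room air replicate 6, which is the highest room air library for NR4A1 and EGR1 in all 3 regions, and the moderate points of EGR4 in VRC lie above all mild points.

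In mPFC most pairs of the 10 genes varied in the same direction from library to library within a condition. Each gene's log2 level (CPM plus 0.5) was centred on the mean of its condition, and Pearson's r was taken over the 18 libraries of a region. These correlations are descriptions: the points share the library, its depth and its tissue makeup. No r between pairs of other genes was taken as a background, so the values are not read as particular to these genes. In mPFC the median r over the 45 pairs was 0.545, and 25 pairs were above 0.5. The closest pair was EGR1 with EGR4 (0.891), followed by NR4A1 with ARC and EGR2 with EGR4 (both 0.851) and NR4A1 with NPAS4 (0.825). NR4A2 with EGR3 was the single negative pair (-0.272). Against the mean of the other 9 genes, EGR4 had the highest r (0.897) and EGR1 the next (0.888), while NR4A2 (0.402) and EGR3 (0.229) had the lowest. BDNF, whose mean was like that of room air in both CH groups, still followed the others from library to library (0.748).

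**Figure D5:**
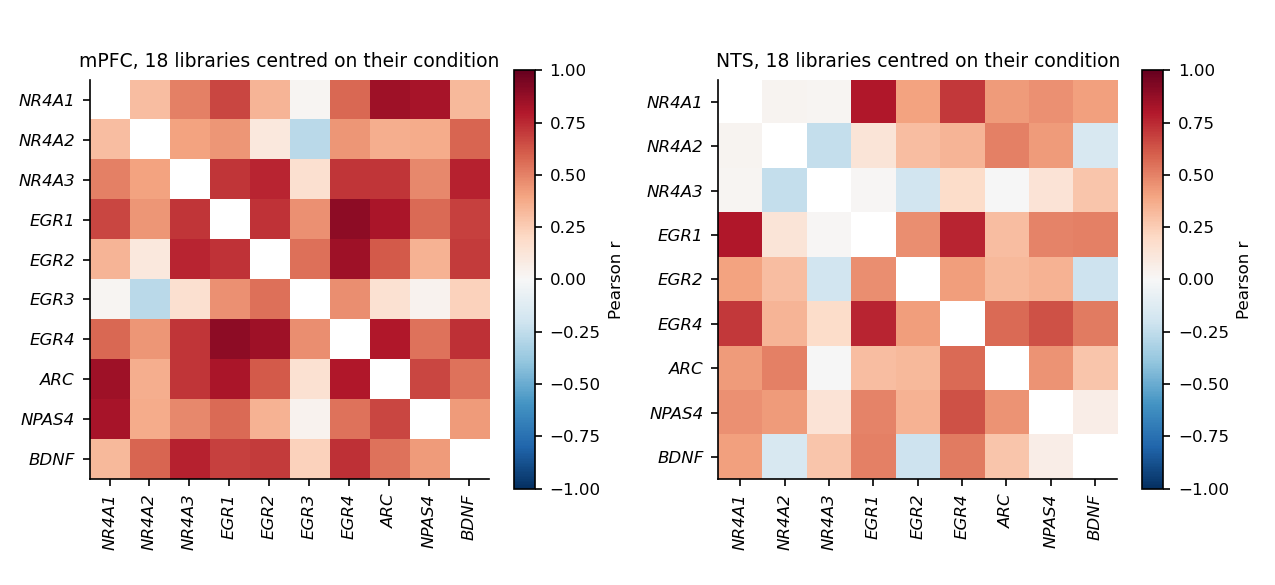
Pearson's r between the genes over 18 libraries of mPFC (left) and NTS (right), after centring each gene's log2 CPM on its condition, on a colour scale that runs from -1 to 1. Most mPFC pairs are positive, with NR4A2 and EGR3 the palest rows, and in NTS the strongest pair is NR4A1 with EGR1 (0.802).

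In the brainstem several of the genes lie near the floor of 3 counts, so r there is not set against that in mPFC. The median r was 0.345 over 36 pairs in NTS, 0.370 over 28 pairs in VRC and 0.034 over 28 pairs in RTN. NR4A1 with EGR1 was the closest pair in NTS (0.802) and in VRC (0.723), and room air replicate 6 was high for both genes. In RTN EGR1 with EGR4 was the closest (0.734), and NR4A2 with ARC ran in opposite directions (-0.571). Outside the 10, the genes whose mPFC profile was most like their mean, among 10044 genes with a symbol and at least 5 CPM, were PNOC, which encodes the nociceptin precursor (0.885), and FOS, the AP-1 subunit (0.882). EFCAB6 (0.864), KLF10 (0.852), TASP1 (0.850), the secretory granule genes SCG2 (0.831) and CHGB (0.804), and the ERK phosphatase DUSP6 (0.797) followed. In NTS, VRC and RTN, r with the mean of the genes tested there was 0.708, 0.764 and 0.607 for FOS. For PNOC it was 0.195, 0.385 and -0.062. These brainstem means rest on fewer genes, several of them near the floor.

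The genes that work before, beside and after the 10 were examined in 5 lists. One list held 28 upstream enzymes, transcription factors and cofactors, not all of which switch such genes on. Of these 28, 18 were called higher and 6 lower in room air mPFC than in the brainstem, with a median log2 difference of 0.69. Over all genes 30.9% were higher and 30.1% lower, with a median of -0.01, and the counts of the other lists stand beside the same shares. MEF2C, a factor that binds activity-regulated enhancers, averaged 645.5 ± 79.3 CPM in mPFC (SD, n = 6) and 22.1 ± 3.63 CPM in the brainstem (SD, n = 18), a log2 difference of 4.86 ± 0.07. The calcium-dependent kinase subunits CAMK2A (6.10 ± 0.17) and CAMK2B (2.33 ± 0.07) were also higher in mPFC, and CAMK2A is itself among the excitatory neuron markers. The ERK kinase MAPK3 (-0.98 ± 0.10) and the CREB coactivators CRTC3 (-0.84 ± 0.09) and CRTC2 (-0.66 ± 0.12) were lower in mPFC.

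Of 17 other activity-regulated transcription factors tested, 9 were called higher and 2 lower in mPFC (median log2 difference 0.34). KLF10 (2.21 ± 0.10), JUNB (1.94 ± 0.23) and PER1 (0.95 ± 0.10) were higher, and the stress factor ATF3 (-1.17 ± 0.31) and TSC22D3 (-0.16 ± 0.06) were lower. Of 19 genes that end the signal, 14 were called higher and 1 lower (median 0.81). RGS4, which shortens G protein signals, averaged 1437 ± 309 CPM in mPFC (SD, n = 6) and 104 ± 20.2 CPM in the brainstem (SD, n = 18). NAB2, the corepressor that EGR proteins recruit, averaged 54.7 ± 8.00 CPM in mPFC and 7.49 ± 2.13 CPM in the brainstem, and DUSP6 averaged 176.5 ± 30.8 CPM in mPFC and 42.7 ± 6.51 CPM in the brainstem. DUSP10 was the gene called lower (-0.91 ± 0.17).

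Of 24 effectors, 16 were called higher and 4 lower in mPFC (median 1.69). The Ras activator RASGRP1 (5.02 ± 0.14), the potassium channel subunit KCNF1 (5.29 ± 0.16) and the synaptic kinase PLK2 (3.07 ± 0.10) were higher. The protease PLAT (-1.11 ± 0.10), which converts proBDNF through plasmin, was lower, as were the growth factors INHBA (-0.85 ± 0.20) and BMP2 (-0.31 ± 0.11). Of 18 partners and receptors of the 10 genes, 11 were called higher and 6 lower (median 0.51). The AMPA receptor subunit GRIA2 (2.58 ± 0.16), WASF1 (2.26 ± 0.09), an actin regulator that binds ARC, and CADPS2 (2.54 ± 0.18), which promotes BDNF release, were higher in mPFC. DNM2 (-1.22 ± 0.06), which serves endocytosis, and the neurotrophin receptor NGFR (-2.11 ± 0.47) were lower. All the genes named from these lists for a regional difference had an adjusted p of at most 0.0348 in edgeR.

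Under hypercapnia edgeR called 0 genes of the 5 lists in any of the 4 regions. At an unadjusted p under 0.05, 17 of 106 list genes passed in mPFC in mild CH and 5 of 106 in moderate CH, beside the 3.45% and 2.10% of all genes given above. The lists were chosen with earlier results of these data known. All their mPFC values under hypercapnia are therefore a description, and nothing is read from them. In the brainstem contrasts with room air 3 to 16 passed, the highest being 16 of 103 in moderate NTS, beside 13.4% of all genes. DESeq2 called CSRNP1, an immediate early transcription factor, in mild mPFC and CCN1, a secreted matrix protein, in moderate NTS, and 4 genes between moderate and mild VRC, where 21 of 103 had an unadjusted p under 0.05 in edgeR, beside 15.5% of all genes. The share of all genes that DESeq2 called is not given, so nothing is read from these DESeq2 calls. In mPFC in mild CH, 16 of the 18 other activity-regulated factors were negative, with a median of -0.28, and in moderate CH 12 of 18 with a median of -0.07. The genes that end the signal were negative in 13 of 19 cases in mild CH (median -0.19) and in 12 of 19 in moderate CH (-0.15). The effectors were negative in 15 of 24 cases in mild CH (-0.10) and in 19 of 24 in moderate CH (-0.12). The upstream kinases and factors were centred near 0 in mild (-0.02) and moderate CH (-0.00065), and the partners and receptors likewise (-0.02 and 0.03). Both CH groups were set against the same room air libraries, so the directions in mild and moderate CH are not independent of each other.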

How the data were processed

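The authors deposited a table of raw counts per gene and RPKM values for 72 libraries, with a length column (unit other) in bases. Per the submitters' processing notes FastQC, Trimmomatic, STAR, featureCounts and edgeR were used; versions, genome build and strand setting were not found in those sources. RPKM is per length and library size per the file headers. The library size that the deposited RPKM implies was 1.0047 to 1.0069 times the summed counts. Only chromosomes were compared with an annotation: each of the 10 genes has the chromosome that RefSeq gives it in ARS1.2.

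Tests used the counts with edgeR 4.0.16 under R 4.3.3. Low genes were removed by filterByExpr (minimum count 10), scaling was by TMM, and calls came from the quasi-likelihood F-test and Benjamini-Hochberg adjustment over all genes tested, at 0.05. The 18 libraries of a region were fitted together for hypercapnia, and the 24 room air libraries for regions. SE is the absolute log2 fold change divided by the square root of F. Alternatives were RLE factors, DESeq2 1.42.0, testing without the filter, the replicate number as a block, a fit of the 2 groups alone, the CH libraries for regions, and single libraries left out. Leaving out all room air libraries numbered 6 was added after seeing the data. The code was tested on simulated data with known changes.

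The 10 genes, the lists and the markers were chosen with earlier results of these data known. Named genes are the 10, of each list up to 3 per direction called by smallest p (given for mPFC against brainstem only, some being left out), and the 8 most like the mean of the 10 in mPFC. A detection floor of 3 counts per library covers counting error only.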

Additional observations from a re-analysis of the deposited data

Results flagged for a closer look

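In groups of 6 libraries, the highest library was compared with the next by Dixon's ratio in 112 groups, and 16 had a library far from the rest. Chance marks about 1 in 20 groups. Room air replicate 6 accounted for 6 of them: NR4A1 at 28.3 CPM in NTS (next 10.9), 26.8 CPM in VRC (next 11.2) and 27.9 CPM in RTN (next 14.8), EGR1 at 36.8 CPM in NTS (next 18.1), EGR4 at 7.14 CPM in NTS (next 2.16) and EGR2 at 1.76 CPM in VRC (next 0.716). Moderate replicate 3 of NTS was high for EGR1 at 39.5 CPM (next 18.1), EGR4 at 10.7 CPM (next 5.21) and BDNF at 67.3 CPM (next 26.4).

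In mPFC the marked libraries were mild replicate 4 for NR4A1 at 103 CPM (next 66.0), mild replicate 1 for EGR3 at 38.8 CPM (next 32.4) and moderate replicate 1 for EGR2 at 32.1 CPM (next 12.4). NR4A1 was at 13.1 CPM in mild NTS replicate 2 (next 9.10), and NR4A2 at 9.22 CPM in moderate RTN replicate 5 (next 5.13). NPAS4 was at 1.73 CPM in moderate NTS replicate 6 (next 0.745) and at 1.14 CPM in moderate VRC replicate 5 (next 0.303). The causes were not tested.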

How the results depend on the processing

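The count of the 10 genes called was 0 in each hypercapnia contrast under every alternative run, except in VRC for moderate against mild, where DESeq2 called 1 (EGR4) and fits without single libraries called 0 to 1. Higher in mPFC than in brainstem were 10 under every alternative run. This count includes EGR3, whose call is fixed by the filter and supports nothing. In the mild CH libraries it also includes NPAS4, whose call there is fixed in the same way. Over all genes 30.9% were called higher in room air, 30.3% in the mild CH and 26.3% in the moderate CH libraries. Between NTS and VRC 3 were called, 6 in the mild CH libraries and 1 (without VRC replicate 4) to 5 (without VRC replicate 6) without single libraries. Between RTN and VRC 2 were called, 1 to 2 without single libraries and 1 without the room air libraries numbered 6. Between RTN and NTS 3 were called, 5 by DESeq2, 6 in the mild CH libraries and 2 (without NTS replicate 6) to 6 (without NTS replicate 1) without single libraries. The cause was not tested. No share of all genes is given beside the DESeq2 counts. EGR3, which did not pass the filter on the brainstem libraries, is among the 6 called in the mild CH libraries in both comparisons with NTS. Between RTN and NTS, EGR3 is also among the 5 called by DESeq2 and the 6 called without NTS replicate 1. These EGR3 calls support nothing. No direction of a called difference reversed.

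The replicate block left 0 called in each hypercapnia contrast and gave 10, 4, 2 and 4 for mPFC against brainstem, NTS against VRC, RTN against VRC and RTN against NTS; EGR1 was added between NTS and VRC, and ARC between RTN and NTS. Same-numbered room air libraries of different regions deviated together in 32 of 36 pairs (r over 0.1, median 0.287, lowest -0.068). All 24 lay closest to their own number, as did 65 of the 72 libraries of all conditions, a hint from the data that the numbers mark animals. With 6 animals per condition in the design text, the regions would share animals, which the main regional fit does not allow for. Across conditions of a region 26 of 72 pairs deviated together (median 0.004), so libraries of different conditions were treated as unpaired.

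EGR3 in the brainstem and NPAS4 in VRC and RTN, often at 3 or fewer counts, did not pass the filter of the hypercapnia fits and were not tested there.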
